A study of Mus musculus with 12 samples.

Results

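The antioxidant and glutathione genes controlled by the transcription factor NRF2 were followed in mouse oligodendrocyte progenitor cells (OPCs) exposed to quaternary ammonium compounds. The 10 genes were chosen by name, with earlier results of these data known. They were Nfe2l2, which encodes NRF2 itself, and Hmox1, Nqo1, Gclc, Gclm, Gsr, Txnrd1, Srxn1, Prdx1 and Osgin1. They are 10 of the 35385 gene symbols in the deposited tables, and their values are TPM (transcript abundance corrected for length and scaled within a library). Of the 12009 genes abundant enough to be tested, 9 were among them, and Osgin1 was not.

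OPCs are the precursors of the cells that make myelin in the central nervous system, and here they were derived from mouse pluripotent stem cells. The cells were given 1 h to attach in a medium that allows differentiation and were then exposed for 4 h. The vehicle group received dimethyl sulfoxide (DMSO). The other 3 groups received cetylpyridinium chloride (CPC), a pyridinium ring with a long alkyl chain; an alkyl(ethylbenzyl)dimethylammonium chloride (AEBDAC), an ammonium with 1 alkyl chain and an ethylbenzyl group; or methyltrioctylammonium chloride (MTOAC), which carries octyl chains and no ring. Each compound was applied at its own IC75, the concentration that inhibits by 75%, so concentrations differed, and their values are not in the labels. There were 3 libraries for each of the 4 groups, with the numbers 1, 2 and 3 in their titles. No genotype, strain or separate culture is labelled, so a p-value reflects the spread among libraries, which may be technical. In such bulk samples, fewer cells of a type and less RNA per cell cannot be told apart.

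NRF2 is regulated mainly as a protein. The adaptor KEAP1 holds it for ubiquitination by a CUL3 ligase, and oxidants or electrophiles that modify KEAP1 cysteines let NRF2 accumulate, enter the nucleus and bind antioxidant response elements together with small MAF proteins. BACH1 occupies many of the same elements as a repressor and is released by heme. The targets include enzymes that make and recycle glutathione, the thioredoxin system, quinone reductase and heme oxygenase. Cells of the oligodendrocyte lineage hold much iron and are known for their sensitivity to oxidants. Only transcript levels were measured here, so nothing was recorded of NRF2 protein or of enzyme activity.

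NRF2 is known to act through the antioxidant response element, so the core of this element was searched for on both strands in the 250 bases before the start sites of the RefSeq promoter table (GRCm38.p6). The core was written as TGACNNNGC or TGAGNNNGC. Both forms can contain the AP-1 site TGACTCA or TGAGTCA, so a match does not tell these motifs apart. The table held 7 of the 10 genes, and Hmox1, Gclc and Gsr were not matched. Of the 7, 6 held at least 1 match at one or more of their start sites and Nqo1 held none, against 25.7% of the 27025 genes in the table with at least 1 match at any start. Bases farther upstream were not searched, so the lack of a match for Nqo1 holds only for this window. The genes were chosen by name as NRF2 genes, so these shares are only a description. The stretches around the matches are shown 5′ to 3′ on the strand of the gene, with the matches in capitals. A match is a description of letters and was not tested for binding.
Nfe2l2, chr2:75704875-75704913, minus strand: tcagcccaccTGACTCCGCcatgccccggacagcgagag
Gclm, chr3:122245403-122245451, plus strand: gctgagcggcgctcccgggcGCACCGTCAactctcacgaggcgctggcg
Txnrd1, the second of 3 start sites, chr10:82859094-82859142, plus strand: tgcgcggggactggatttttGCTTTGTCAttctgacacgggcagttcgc
Srxn1, chr2:152105346-152105507, plus strand: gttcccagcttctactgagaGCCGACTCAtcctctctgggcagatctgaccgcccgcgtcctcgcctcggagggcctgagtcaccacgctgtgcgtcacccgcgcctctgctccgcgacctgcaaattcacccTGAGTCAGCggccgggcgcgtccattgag
Prdx1, chr4:116685446-116685494, plus strand: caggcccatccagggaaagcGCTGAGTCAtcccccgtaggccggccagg
Osgin1, chr8:119437028-119437076, plus strand: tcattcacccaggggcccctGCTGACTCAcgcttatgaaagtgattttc
Srxn1 was the 1 gene of the 7 with 2 matches, and they began 158 and 45 bases before its start site. The match began 134 bases before the start of Gclm, 133 before Prdx1, 99 before Osgin1, 92 before the second start of Txnrd1 and 240 before Nfe2l2. The stretches of Osgin1 and Txnrd1 lie inside the gene spans given below, so the start sites used for them are internal to those spans.

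The deposited values summed to 772637 to 797758 TPM per library, with 15431 to 16210 symbols above 0, and TPM do not show the depth beyond the stated minimum of 20 M reads. Vehicle library 1 stood apart: its mean correlation across genes with the other libraries was 0.917, against 0.935 to 0.957. Transcripts of the mitochondrial genome made up 86422 TPM of it, and 147539 to 183001 TPM of each other library. All 9 OPC markers were present, with a summed level of 2057 to 2411 TPM in vehicle and 1296 to 1798 TPM across the treated libraries, and the part of this difference in the results below was not tested. Olig1, the most abundant, averaged 1194 TPM in vehicle and 782, 682 and 531 TPM with CPC, AEBDAC and MTOAC. Ptprz1 averaged 337, 306, 327 and 332 TPM in the same order. Cspg4, at 31.7, 35.6, 37.2 and 25.7 TPM, was the 1 marker whose mean was not lower with each compound. None of 8 microglia and macrophage markers reached 1 TPM in 3 libraries, and Cx3cr1, Adgre1 and Tyrobp were listed at 0 throughout. Of the other marker lists, 4 of 5 astrocyte markers (summed 19.2 to 69.7 TPM), 4 of 5 neuron markers (24.9 to 40.6), 2 of 5 markers of myelinating oligodendrocytes and 1 of 6 mesenchymal markers (33.0 to 91.5) reached that level, and none of 4 endothelial and none of 5 pluripotency markers did. Of the pluripotency markers, Pou5f1, a defining one, was listed at 7.83 TPM in vehicle library 1, at 9.64 TPM in MTOAC library 3 and at 0 in the other 10 libraries, and the other 4 lay at 0.915 TPM or less throughout. The part of this in the results was not tested.

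In vehicle-treated OPCs the 10 genes spanned a wide range of abundance. Prdx1, a peroxiredoxin that reduces hydrogen peroxide, led with 655 ± 156 TPM (SD, n = 3), followed by Txnrd1, the cytosolic thioredoxin reductase, with 136 ± 15.9 TPM. Nfe2l2 (47.5 ± 16.2 TPM), Gclm (47.2 ± 15.6 TPM), Hmox1 (46.8 ± 8.62 TPM) and Gsr (36.6 ± 5.01 TPM) came next, and the libraries of each neighbouring pair in this order overlapped. Gclc (23.1 ± 5.58 TPM), Srxn1 (11.8 ± 2.45 TPM), Nqo1 (2.90 ± 2.36 TPM) and Osgin1 (0.281 TPM) followed without overlap between neighbours. In each of the 3 compound groups Hmox1 held the third place, with no overlap with Txnrd1 above it or with the next gene below, which was Nfe2l2 with CPC and Gclm with AEBDAC and MTOAC. The other genes kept their sequence but for Nfe2l2 and Gclm, whose libraries overlapped in every group, and Srxn1 and Nqo1 overlapped with AEBDAC.

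**Figure D1:**
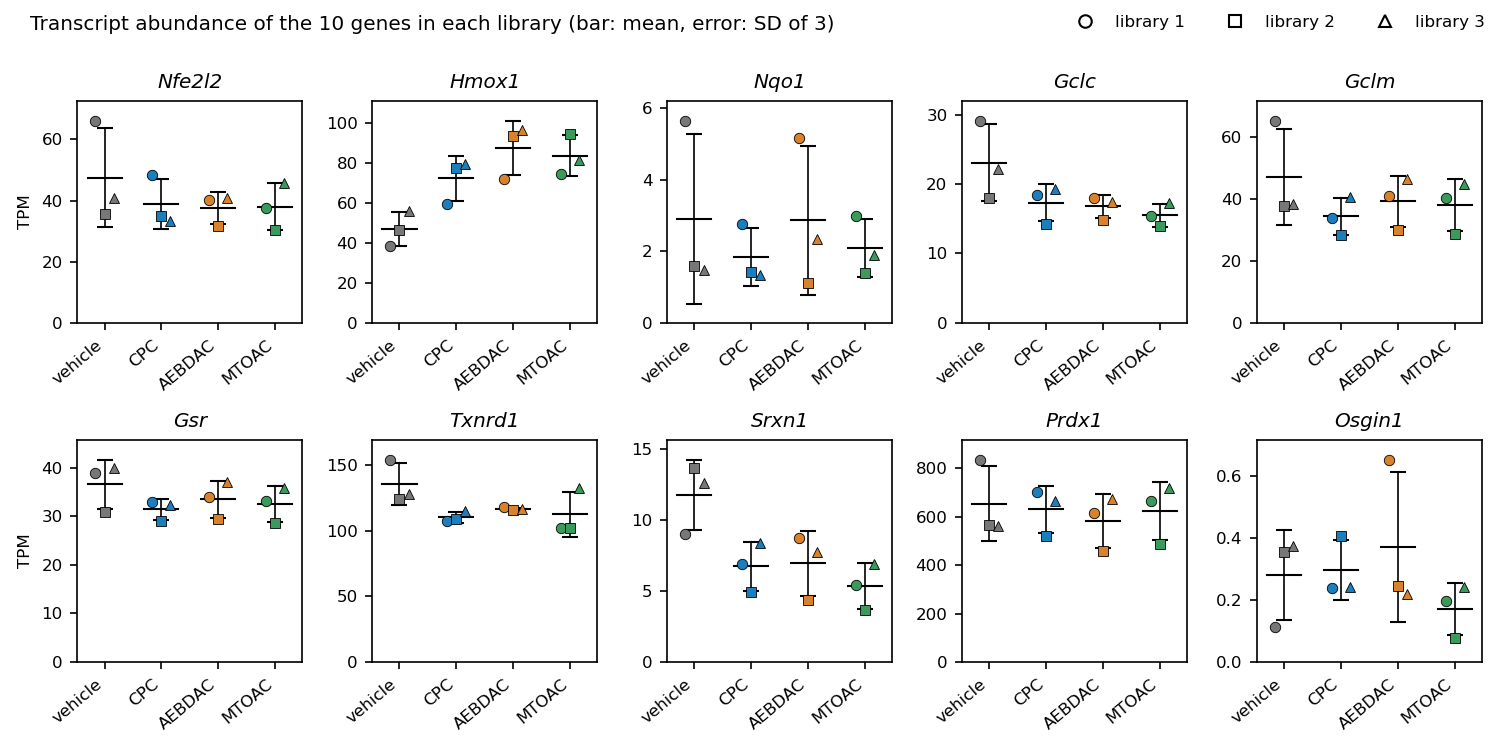
TPM of the 10 genes in each library, with 1 panel per gene, the 4 groups on the x axis and a linear y axis from 0; circles, squares and triangles are libraries 1, 2 and 3, and bars are the mean and SD of 3. Hmox1 lies at 59.3 TPM or more in all 9 treated libraries and at 55.7 TPM or less in vehicle, Srxn1 shows the opposite order, and vehicle library 1 is the highest point for Nfe2l2, Gclm, Gclc, Nqo1, Txnrd1 and Prdx1.

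Against vehicle, Hmox1 rose with AEBDAC and MTOAC, and no other member passed the test in any of the comparisons with vehicle. In limma fits over all tested genes, at an adjusted p under 0.05, CPC called 0 of the 9 members, where 0.0666% of all tested genes were called, and 3 members (Hmox1, Txnrd1 and Srxn1) had an unadjusted p under 0.05, as 13.6% of all tested genes did. AEBDAC called 1 of 9 beside 1.27% of all genes, and MTOAC 1 of 9 beside 6.54%. At an unadjusted p under 0.05 there were 3 members with AEBDAC and 4 with MTOAC, beside 19.2% and 24.4% of all genes. The mean of all 3 compounds against vehicle called the same 1 gene, Hmox1, beside 7.66%.

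The members other than Hmox1 mostly had fitted values below 0, and so had most genes. The log2 fold change was negative for 8 of 9 members with CPC, 7 with AEBDAC and 8 with MTOAC, beside 71%, 66.9% and 71.7% of all tested genes. The median over the members was -0.29, -0.21 and -0.27 log2, and the median over all tested genes was -0.17, -0.16 and -0.22 log2. Relative to that median gene the members' median was -0.12 with CPC, -0.05 with AEBDAC and -0.05 with MTOAC, and 7, 5 and 5 of the 9 members lay below it; with AEBDAC Prdx1 lay on it. When the libraries were quantile normalized, which brings the median gene to about 0, Gsr with AEBDAC and MTOAC and Nqo1 with MTOAC had fitted values above 0.

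**Figure D2:**
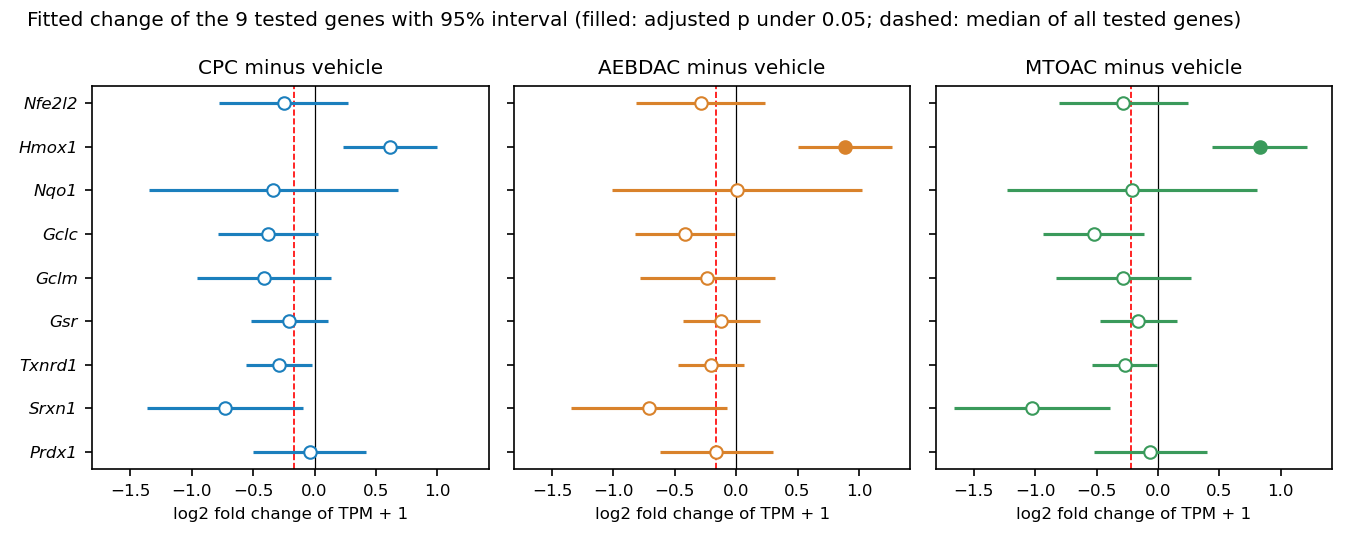
Fitted log2 fold change of TPM + 1 for the 9 tested genes (y axis) against vehicle, 1 panel per compound; points are estimates, lines are 95% confidence intervals, filled points have a limma adjusted p under 0.05, and the dashed line is the median of all tested genes. Hmox1 lies above 0 in the 3 panels, and the lowest point is Srxn1 with MTOAC at -1.03.

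Hmox1 (chr8:75093621-75100589, plus strand, GRCm38) encodes heme oxygenase 1, the inducible enzyme that splits heme into biliverdin, carbon monoxide and iron. Vehicle libraries 1, 2 and 3 held 38.5, 46.3 and 55.7 TPM. The CPC libraries held 59.3, 77.5 and 79.5 TPM, the AEBDAC libraries 71.6, 93.4 and 96.4 TPM and the MTOAC libraries 74.4, 94.5 and 81.3 TPM. Every treated library lay above every vehicle library, and library 1 was the lowest of its group in all 4 groups. Among all tested genes 2.58% lay wholly above vehicle with CPC, 5.65% with AEBDAC and 3.99% with MTOAC, and 1.34% did so in all 9 treated libraries together.

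The rise of Hmox1 was 0.89 ± 0.18 log2 (SE) with AEBDAC (95% interval 0.50 to 1.27; limma adjusted p = 0.0406) and 0.83 ± 0.18 with MTOAC (0.44 to 1.21; adjusted p = 0.0242). With CPC the estimate was 0.62 ± 0.18 (0.23 to 1.0) and did not pass (limma adjusted p = 0.198). The CPC and vehicle libraries deviated together by library number. With that number as a block the CPC value passed (limma adjusted p = 0.0352), the 1 member called beside 1.53% of all genes. The block was fitted over all 12 libraries, also those of AEBDAC and MTOAC, which did not deviate together with vehicle by the rule given below. This holds for each result with the block. Over the 3 compounds together Hmox1 rose by 0.78 ± 0.14 log2 (limma adjusted p = 0.0136). Relative to the median gene the values were 0.78 with CPC, 1.05 with AEBDAC and 1.05 with MTOAC, which placed Hmox1 at percentile 97.5, 98.2 and 98.0 of all fold changes.

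The Hmox1 calls depended on which libraries were in the fit. With AEBDAC the call held without AEBDAC library 1 (limma adjusted p = 0.0414) and was lost without each of the other 5 libraries in turn: 0.116, 0.0974 and 0.0568 without vehicle libraries 1, 2 and 3, and 0.189 and 0.158 without AEBDAC libraries 2 and 3. With MTOAC it was lost without vehicle library 1 (0.0688), vehicle library 2 (0.0615) and MTOAC library 2 (0.0871). Over the 3 compounds together it was lost only without vehicle library 1 (0.0643), 1 of the 12 libraries left out in turn. With no filter on abundance the AEBDAC call was lost (0.0781) and the MTOAC call held (0.047), and both were lost when only the libraries compared entered the fit (0.157 and 0.104).

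Nfe2l2 (chr2:75675513-75704641, minus strand), the NRF2 gene, did not show a difference beyond the spread between libraries. It was listed at 65.9, 35.5 and 41.0 TPM in vehicle, at 48.2, 35.0 and 33.3 TPM with CPC, at 40.3, 31.5 and 40.9 TPM with AEBDAC and at 37.6, 30.4 and 45.9 TPM with MTOAC. All groups overlapped, and the highest of the 12 values was that of vehicle library 1. The estimates were -0.25 ± 0.24, -0.29 ± 0.24 and -0.28 ± 0.24 log2 for CPC, AEBDAC and MTOAC (limma adjusted p = 0.675, 0.543 and 0.512). Over the 3 compounds the estimate was -0.27, and -0.016 without vehicle library 1. The abundance of Hmox1 per transcript of Nfe2l2 was 1.08 ± 0.43 in vehicle (SD, n = 3), 1.94 ± 0.62 with CPC, 2.37 ± 0.59 with AEBDAC and 2.29 ± 0.72 with MTOAC, and it exceeded 1 in 2 of 3 vehicle libraries and in all treated ones.

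Among 15 regulators and partners of NRF2, 13 were tested and 2 fell with MTOAC, none with CPC or AEBDAC, and none rose, where MTOAC called 5.75% of all tested genes lower and 0.791% higher. Dpp3, a peptidase that can bind KEAP1 in place of NRF2, was listed at 42.9, 37.9 and 37.0 TPM in vehicle, at 24.6, 22.0 and 24.0 TPM with CPC, at 30.6, 22.0 and 24.9 TPM with AEBDAC and at 21.3, 21.8 and 17.8 TPM with MTOAC. All 9 treated libraries lay below all vehicle libraries. With MTOAC Dpp3 fell by 0.92 on the log2 scale (SE 0.14, limma adjusted p = 0.00979) and kept the call without each of the 6 libraries. Over the 3 compounds together Dpp3 was called without each of the 12 libraries in turn (limma adjusted p from 0.00703 to 0.0413). With CPC its estimate of -0.72 did not pass (limma adjusted p = 0.115) and passed with the block (adjusted p = 0.0367).

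Keap1 was listed at 36.2, 25.9 and 29.9 TPM in vehicle and at 18.1, 20.5 and 14.5 TPM with MTOAC. With CPC it was listed at 22.1, 23.2 and 23.8 TPM, also below all vehicle libraries. With AEBDAC it was listed at 26.0, 20.1 and 15.8 TPM, which overlapped vehicle. With MTOAC Keap1 fell by 0.76 on the log2 scale (SE 0.19, limma adjusted p = 0.0436), and the call was lost without any 1 of the 6 libraries (adjusted p from 0.0605 to 0.123) and with quantile normalization (0.185). Bach1, the repressor of Hmox1, was listed at 18.1 ± 4.30 TPM in vehicle and at 17.2, 18.3 and 20.2 TPM on average with CPC, AEBDAC and MTOAC. The list's median was -0.08, -0.28 and -0.06 log2 for the 3 compounds, beside the medians of all genes given above. With CPC the highest value was that of Mafg (0.32) and with AEBDAC that of Mafk (0.53), small MAF partners of NRF2, and neither passed (limma adjusted p = 0.813 and 0.322). Nfe2l3 and Maff were below the abundance filter.

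The first step of glutathione synthesis is made by glutamate-cysteine ligase, whose catalytic subunit is encoded by Gclc (chr9:77754535-77794485, plus strand) and whose modifier subunit by Gclm (chr3:122245557-122270732, plus strand). Gclc was listed at 29.0, 18.0 and 22.2 TPM in vehicle, 18.4, 14.3 and 19.2 TPM with CPC, 18.0, 14.9 and 17.5 TPM with AEBDAC and 15.3, 13.9 and 17.3 TPM with MTOAC. The AEBDAC and MTOAC libraries lay below all vehicle libraries and the CPC libraries overlapped them. With AEBDAC this was only just so, with a highest value of 17.97 TPM against a lowest of 17.98 TPM in vehicle. The estimates were -0.38, -0.42 and -0.52 log2 (SE 0.19 each), and none passed (limma adjusted p = 0.394, 0.252 and 0.11). Relative to the median gene they were -0.21, -0.26 and -0.31.

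Gclm was listed at 65.2, 37.7 and 38.6 TPM in vehicle, 34.0, 28.5 and 40.7 TPM with CPC, 40.9, 30.1 and 46.6 TPM with AEBDAC and 40.3, 28.8 and 45.0 TPM with MTOAC. All groups overlapped, and vehicle library 1 was again the highest. The estimates were -0.41, -0.24 and -0.28 log2 (limma adjusted p = 0.493, 0.648 and 0.537). Over the 3 compounds the estimate was -0.31, and -0.057 without vehicle library 1. The gene overlaps a pseudogene, Gm6061, on its own strand and Gm17494 on the other, and no strand information is stated, so the division of reads is uncertain. Transcripts of Gclm per transcript of Gclc numbered 2.03 ± 0.26 in vehicle (SD, n = 3), 1.99 ± 0.13 with CPC, 2.32 ± 0.32 with AEBDAC and 2.43 ± 0.32 with MTOAC, with overlap between all groups.

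Gsr (chr8:33652523-33698163, plus strand) encodes glutathione reductase, which returns oxidized glutathione to its reduced form with NADPH. It was listed at 39.0, 30.8 and 39.9 TPM in vehicle, 32.9, 29.0 and 32.4 TPM with CPC, 33.9, 29.5 and 37.0 TPM with AEBDAC and 33.2, 28.7 and 35.9 TPM with MTOAC. All groups overlapped, and the estimates of -0.20, -0.12 and -0.16 log2 lay within 0.06 of the median gene (limma adjusted p = 0.554, 0.688 and 0.54).

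Of the 33 other genes of glutathione synthesis, use and breakdown, 31 were tested. With CPC 1 rose and none fell, with AEBDAC 2 rose and none fell, and with MTOAC 2 rose and 1 fell, beside 0.0666%, 1.27% and 6.54% of all tested genes called in either direction. Chac1, which degrades glutathione in the cytosol and is a target of the integrated stress response, was the gene called with each compound (limma adjusted p = 0.00425, 0.000531 and 0.0006). It was listed at 3.05, 6.50 and 7.42 TPM in vehicle and between 33.0 and 60.7 TPM in the treated libraries. Its estimates were 2.66, 3.11 and 3.03 log2 with CPC, AEBDAC and MTOAC. Each of these calls held without each of the 6 libraries compared. Slc3a2, the heavy chain shared by several amino acid exchangers including the cystine importer, was listed at 140, 140 and 147 TPM in vehicle, at 264, 343 and 386 TPM with AEBDAC and at 255, 346 and 334 TPM with MTOAC. It rose by 1.19 ± 0.19 log2 with AEBDAC (limma adjusted p = 0.0225) and by 1.11 ± 0.19 with MTOAC (0.0128).

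With CPC Slc3a2 was listed at 184, 274 and 283 TPM, all above vehicle, and its estimate of 0.76 did not pass (limma adjusted p = 0.154) but did with the block (0.0317). The AEBDAC call on Slc3a2 was lost without 5 of the 6 libraries, AEBDAC library 1 being the exception (highest adjusted p = 0.137), and the MTOAC call without MTOAC library 2 (0.0507). Over the 3 compounds together Slc3a2 was called without each of the 12 libraries in turn (limma adjusted p from 0.00522 to 0.0387). Slc7a11, the light chain of the cystine importer, was listed at 2.35 ± 0.45 TPM in vehicle and at 2.56, 3.58 and 3.49 TPM on average with CPC, AEBDAC and MTOAC, and did not pass. Glrx, a glutaredoxin, fell with MTOAC from 51.8 ± 7.61 to 33.6 ± 2.99 TPM (-0.60 ± 0.15 log2, limma adjusted p = 0.04), a call lost without any 1 of the 6 libraries (0.0612 to 0.129), with no filter (0.069) and with quantile normalization (0.0803). With CPC Glrx was listed at 36.1, 29.9 and 39.8 TPM and with AEBDAC at 33.6, 28.0 and 33.7 TPM. These values also lay below the lowest vehicle value of 46.8 TPM, and Glrx passed with neither compound. Over the 3 compounds together the call on Glrx was lost only without vehicle library 1 (limma adjusted p = 0.0828). The list's median was -0.12, -0.10 and -0.19 log2 for CPC, AEBDAC and MTOAC.

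Srxn1 (chr2:152105516-152111376, plus strand) encodes sulfiredoxin, which restores overoxidized peroxiredoxins, and it had the lowest fold change of the members with each compound. It was listed at 8.98, 13.6 and 12.6 TPM in vehicle. With CPC it was listed at 6.88, 4.95 and 8.35 TPM, with AEBDAC at 8.73, 4.34 and 7.73 TPM and with MTOAC at 5.38, 3.66 and 6.90 TPM. Every treated library lay below every vehicle library, as 10.1% of all tested genes did, so the opposite order to Hmox1 held in all 9 treated libraries.

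The estimates for Srxn1 were -0.73 ± 0.29 with CPC, -0.71 ± 0.29 with AEBDAC and -1.03 ± 0.29 log2 with MTOAC (95% interval -1.66 to -0.39), and none passed (limma adjusted p = 0.314, 0.213 and 0.0582). Over the 3 compounds together the estimate was -0.82 ± 0.24 (limma adjusted p = 0.0568), and it passed without MTOAC library 3 (0.0443). Relative to the median gene the values were -0.56, -0.55 and -0.81. Vehicle library 1, highest for 6 members, was the lowest vehicle library for Srxn1, and without it the value over the 3 compounds was -0.99 (adjusted p = 0.0947).

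Txnrd1 (chr10:82833951-82897712, plus strand) was listed at 154, 125 and 129 TPM in vehicle, 107, 109 and 115 TPM with CPC, 118, 116 and 117 TPM with AEBDAC and 103, 103 and 133 TPM with MTOAC. The CPC and AEBDAC libraries lay below all vehicle libraries and MTOAC library 3 lay above 2 of them. The estimates were -0.29, -0.21 and -0.27 log2 (SE 0.12 each), and none passed (limma adjusted p = 0.343, 0.38 and 0.196). The gene overlaps the protein-coding Eid3 on its own strand and 2 further genes on the other, so its reads are uncertain to that extent. With Srxn1 and Txnrd1, 2 members lay wholly below vehicle with CPC, beside 18% of all tested genes. Gclc (only just), Srxn1 and Txnrd1 made 3 with AEBDAC beside 19.2%, and Gclc and Srxn1 made 2 with MTOAC beside 22.4%.

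Prdx1 (chr4:116685544-116700822, plus strand) was listed at 834, 568 and 561 TPM in vehicle, 705, 522 and 667 TPM with CPC, 614, 458 and 676 TPM with AEBDAC and 666, 488 and 719 TPM with MTOAC. All groups overlapped, and libraries within a group differed more than the group means did. The estimates were -0.04, -0.16 and -0.06 log2 (SE 0.21 each; limma adjusted p = 0.958, 0.72 and 0.891).

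Of 20 other thioredoxin, peroxiredoxin and superoxide defence genes, 19 were tested. None passed with CPC or AEBDAC, and with MTOAC 1 rose and 1 fell, beside 0.791% of all tested genes higher and 5.75% lower. Sesn2, a stress-inducible sestrin, was listed at 70.3, 73.4 and 46.1 TPM in vehicle and at 113, 139 and 104 TPM with MTOAC, a rise of 0.91 ± 0.22 log2 (limma adjusted p = 0.0359). With AEBDAC it was listed at 107, 156 and 119 TPM (1.01 ± 0.22, limma adjusted p = 0.0525). With CPC Sesn2 was listed at 81.8, 119 and 81.3 TPM, also above all vehicle libraries. Cat, the catalase gene, fell with MTOAC from 54.2 ± 2.01 to 38.1 ± 2.23 TPM (-0.50 ± 0.11 log2, limma adjusted p = 0.0279). With CPC Cat was listed at 43.6, 42.3 and 47.3 TPM and with AEBDAC at 44.4, 37.0 and 44.2 TPM. These values also lay below the lowest vehicle value of 52.2 TPM.

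The MTOAC call on Sesn2 held without MTOAC library 3 (limma adjusted p = 0.0495) and was lost without each of the other 5 libraries, and that on Cat held without vehicle library 1 and MTOAC library 3 and was lost without the other 4 (highest 0.119 and 0.0936). Cat was also lost with quantile normalization (0.164). Over the 3 compounds together the call on Sesn2 was lost only without vehicle libraries 1 and 3. That on Cat held without 6 of the 12 libraries and was lost with quantile normalization (limma adjusted p = 0.216). Txnip, which inhibits thioredoxin, was listed at 9.51, 2.73 and 3.30 TPM in vehicle and between 0 and 2.11 TPM in the treated libraries. It fell over the 3 compounds together (limma adjusted p = 0.0311), passed with CPC only with the block (0.252 without it, 0.0444 with it), and the call over all compounds was lost without 7 of the 12 libraries. It was also lost with no filter (0.0568) and with a pseudocount of 0.1 (0.0832), where the fold change was -2.97 in place of -1.73 log2. The list's median was -0.09, -0.11 and -0.18 log2.

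Nqo1 (chr8:107388225-107403206, minus strand) encodes NAD(P)H quinone reductase, a widely used readout of NRF2 activity. It was listed at 5.63, 1.60 and 1.48 TPM in vehicle, 2.78, 1.41 and 1.33 TPM with CPC, 5.17, 1.11 and 2.34 TPM with AEBDAC and 2.98, 1.38 and 1.91 TPM with MTOAC. Library 1 was the highest in all 4 groups, and the groups overlapped. The estimates were -0.34, 0.0061 and -0.21 log2 with an SE of 0.46 each, the widest error of the members (limma adjusted p = 0.793, 0.996 and 0.824). With the block the SE was 0.24, and Nqo1 did not pass with CPC (limma adjusted p = 0.469). Osgin1 (chr8:119434124-119446256, plus strand), an oxidative stress induced growth inhibitor, was listed between 0.0783 and 0.653 TPM over the 12 libraries, was not tested and showed overlapping groups.

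The remaining 3 lists gave no call in any comparison of 1 compound with vehicle: 10 genes of NADPH supply (all tested), 15 of heme and iron handling (14 tested) and 18 other NRF2 target enzymes and carriers (13 tested). Their medians were -0.17, -0.11 and -0.15 log2 for NADPH supply with CPC, AEBDAC and MTOAC, -0.14, -0.08 and -0.26 for heme and iron, and -0.29, -0.36 and -0.32 for the other targets, beside the medians of all genes given above. Pgd, an enzyme of the pentose phosphate pathway, had the lowest fold change of the NADPH list with AEBDAC and MTOAC and was listed at 107 ± 21.8 TPM in vehicle and at 80.3, 76.2 and 72.2 TPM on average with the 3 compounds. It passed over the 3 compounds together (limma adjusted p = 0.0417), a call lost without 11 of the 12 libraries.

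Hmox2, the constitutive heme oxygenase, went the other way from Hmox1 in its listed values, with 24.8 ± 3.78 TPM in vehicle, 14.3 ± 1.92 with AEBDAC and 16.5 ± 4.40 with MTOAC, and did not pass (limma adjusted p = 0.148 and 0.185). Transcripts of Hmox1 per transcript of Hmox2 numbered 1.92 ± 0.44 in vehicle (SD, n = 3), 4.32 ± 1.83 with CPC, 6.24 ± 1.62 with AEBDAC and 5.49 ± 2.42 with MTOAC. Fth1, the ferritin heavy chain, varied between 1125 and 1619 TPM over all libraries. The lowest fold changes of these lists with CPC and AEBDAC were those of Ftl1, the ferritin light chain (-1.91 and -1.57 log2), and Ephx1, an epoxide hydrolase (-2.34 and -1.89). Neither passed (limma adjusted p = 0.423 and 0.414, and 0.359 and 0.353), and vehicle library 1 held 680 TPM of Ftl1 against 38.7 and 32.9 TPM in vehicle libraries 2 and 3. Among the other targets the highest fold change with each compound was that of Akr1b10, an aldo-keto reductase (0.34, 0.43 and 0.82 log2), which did not pass (limma adjusted p = 0.755, 0.596 and 0.24).

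**Figure D3:**
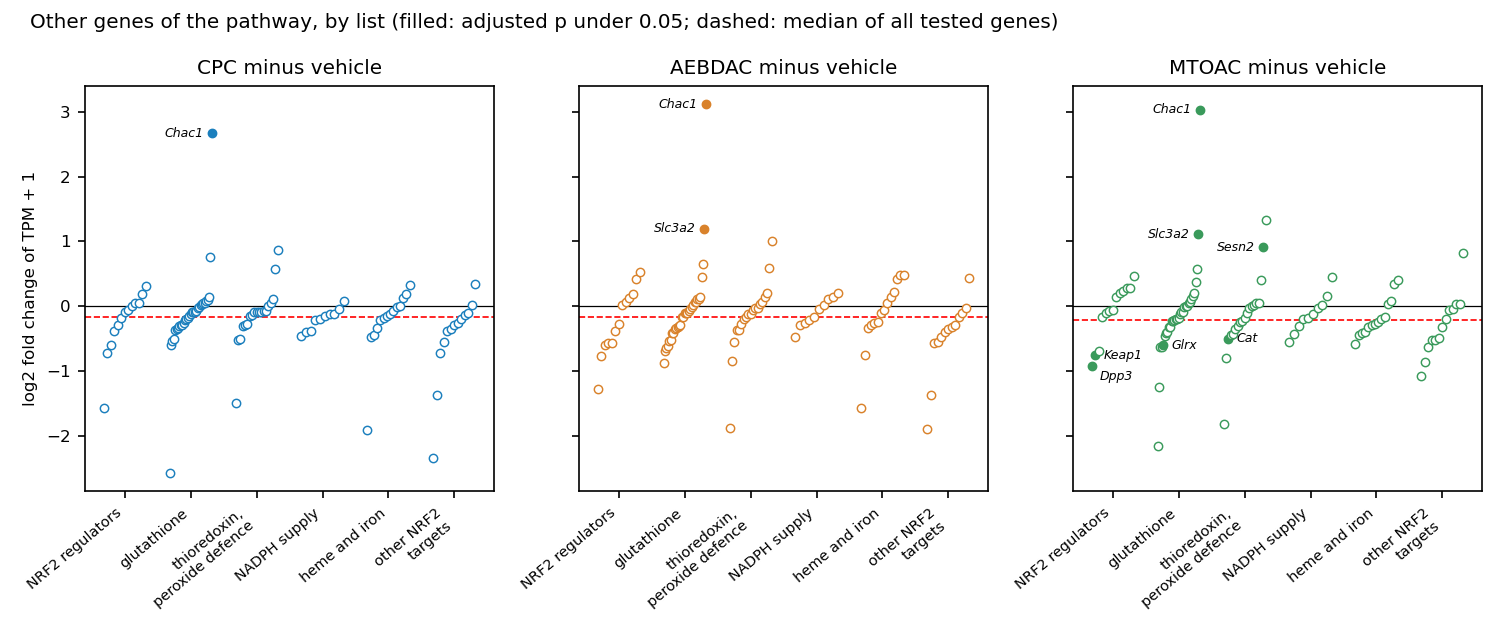
Fitted log2 fold change of TPM + 1 against vehicle for the tested genes of 6 other pathway lists (x axis), 1 panel per compound; each point is 1 gene, filled points have a limma adjusted p under 0.05, and the dashed line is the median of all tested genes. The named filled points are the list genes that passed, Chac1 in the 3 panels, Slc3a2 with AEBDAC and MTOAC, and Sesn2, Keap1, Dpp3, Glrx and Cat with MTOAC.

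The compounds differ in structure and, at their own IC75, in concentration, so their differences compare exposures and not molecules at a matched dose. In the 3 pairwise comparisons no member passed, as no gene did (0% called; 211, 449 and 307 genes at an unadjusted p under 0.05 for AEBDAC against CPC, MTOAC against CPC and MTOAC against AEBDAC, none of them a member). For Hmox1 the difference was 0.27 log2 for AEBDAC over CPC (95% interval -0.12 to 0.66), 0.21 for MTOAC over CPC (-0.17 to 0.60) and -0.06 for MTOAC over AEBDAC (-0.44 to 0.33). For Srxn1 it was 0.02 (-0.62 to 0.65), -0.30 (-0.94 to 0.34) and -0.32 (-0.95 to 0.32). Intervals of this width do not show that the exposures act alike. The groups of 1 member did not overlap, Txnrd1 with AEBDAC over CPC (0.08, -0.19 to 0.35), beside 4.02% of all genes higher in that way.

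Several members shared low values in the libraries numbered 2. Library 2 was the lowest of its group for 5 of the 9 tested members in vehicle, 5 with CPC, 8 with AEBDAC and 7 with MTOAC. The members' median deviation from the group mean in library 2 was -0.23, -0.20, -0.24 and -0.29 log2 in these groups, beside -0.10, -0.03, -0.07 and -0.10 for all tested genes. Gclm, Gclc and Gsr were lowest in library 2 of all 4 groups, whereas Hmox1 was lowest in library 1 of all 4. What the number stands for is not in the labels, and its part in these values was not tested.

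**Figure D4:**
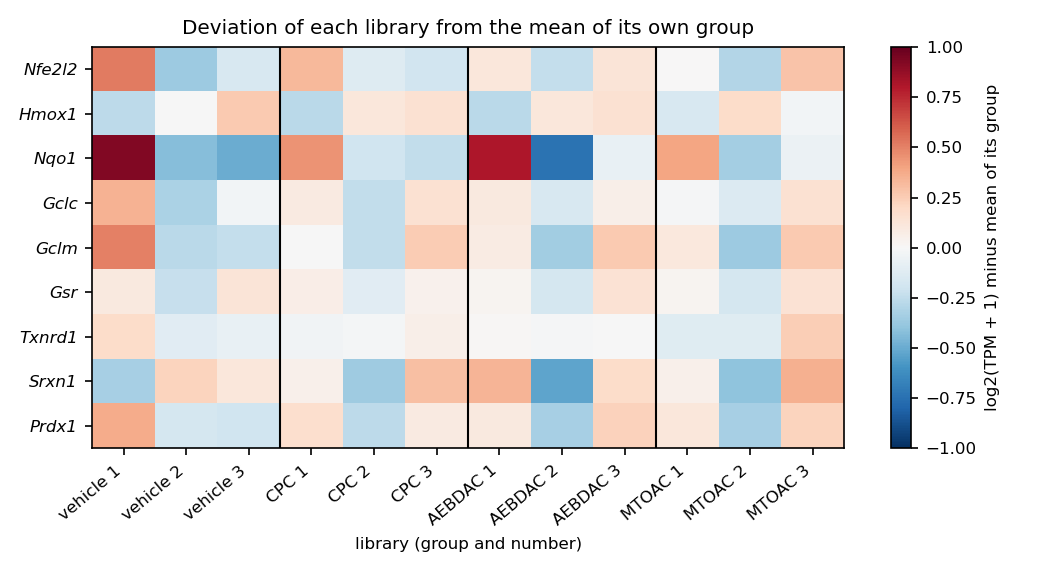
Deviation of each library from the mean of its own group, as log2(TPM + 1), for the 9 tested genes (rows) in the 12 libraries (columns); red is above and blue below the group mean. In library 2 of every group 8 of the 9 genes lie below the group mean, the exception being Srxn1 in vehicle and Hmox1 with the compounds, and in vehicle library 1 7 of 9 lie above it.

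Vehicle library 1 held the highest value of all 12 libraries for Nfe2l2, Gclm, Gclc, Nqo1, Txnrd1 and Prdx1 and the lowest for Hmox1. High values there were not limited to the members. The median deviation of this library from the vehicle mean was 0.34 log2 for the 9 tested members and 0.17 for all tested genes. The mean of vehicle libraries 2 and 3 was 38.2 TPM for Nfe2l2, 38.2 for Gclm, 20.1 for Gclc, 1.54 for Nqo1 and 565 for Prdx1. Without vehicle library 1 the estimate over the 3 compounds for Prdx1 was 0.10 and for Nqo1 0.28 log2, both with the sign turned. None of the 9 members passed in that fit, where 169 of all tested genes were called, against 920 with the library. Hmox1 then stood at 0.65 ± 0.15 log2, with its 2 remaining vehicle libraries at 46.3 and 55.7 TPM, below the lowest treated value of 59.3 TPM.

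The genes whose pattern over the 12 libraries was most like that of Hmox1 were sought among the 8227 tested genes whose mean reached 5 TPM. Likeness was the root mean square difference of log2(TPM + 1), each gene relative to its own vehicle mean, and Hmox1 itself lay 0.70 log2 from its vehicle mean by this measure. The nearest were Cystm1, a small cysteine-rich membrane protein gene (0.11), Atxn2l, an ataxin-2-like RNA-binding protein gene (0.12), Siah2, a ubiquitin ligase gene (0.16), and Mtss1l (0.16). Cystm1 was listed at 29.1 TPM in vehicle and at 41.9, 52.6 and 51.8 TPM on average with CPC, AEBDAC and MTOAC, and Atxn2l at 63.5, 95.6, 118 and 111 TPM. No other member was among the 4, which follows from the members' values given above and is no separate result.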

How the data were processed

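Libraries were made from poly(A) RNA with a kit not described as marking strand and sequenced as paired reads of 150 bp, with a minimum of 20 M reads, per the labels' protocols. Salmon and the build mm10 are named per the submitters' processing notes; its version and the annotation were not given in the sources used here. For each library the authors deposited TPM per gene symbol, 12 tables in all. TPM are shares of a library, so a rise of abundant transcripts lowers all others, and they keep no depth.

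Values were tested with limma 3.58.1 (R 4.3.3, trend and robust moderation) on log2(TPM + 1), which understates changes of low genes. The 12009 genes that reached 1 TPM in 3 or more libraries entered 1 fit of 4 group means over all 12 libraries, without covariates. Two-sided p-values were adjusted over all tested genes of each comparison (Benjamini-Hochberg), and a gene was called at an adjusted p under 0.05. There were 7 comparisons: each compound and the mean of all 3 against vehicle, and the 3 pairs of compounds. With 3 libraries against 3, the smallest p of an exact permutation test is 0.1. The script was tested on simulated data. Alternatives were a pseudocount of 0.1, no filter, quantile normalization, the replicate number as a block with and without quantile normalization, only the compared groups, and each library left out in turn.

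The members and the 6 other gene lists were chosen with earlier results of these data known. The genes named are all members, the list genes called against vehicle (otherwise the 2 highest and 2 lowest fold changes, of which only some are printed), and the 4 genes most like a called member; Bach1, Slc7a11, Fth1 and the genes of the closing observations were named after their values were seen. Coordinates are from GENCODE M21 (GRCm38), which matched 34858 of 35385 symbols, and promoter sequences from RefSeq.

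No pair of libraries was identical, and correlations within a group lay between 0.915 and 0.964. Replicate numbers come from the titles, which do not say what they mark. Same-numbered libraries were taken as paired where all 3 correlations of their deviations from the group means exceeded 0.1. These were 0.339, 0.305 and 0.234 for CPC and vehicle, and the rule was also met for AEBDAC and CPC and for MTOAC and AEBDAC, but not for AEBDAC or MTOAC and vehicle or for MTOAC and CPC.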

Additional observations from a re-analysis of the deposited data

How the results depend on the processing

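The limits are the 3 libraries per group, the unknown depth, and concentrations that differ between compounds. Of 801 values of single members under the alternatives, 717 kept their direction and side of the threshold, 12 lost the call, 8 gained it and 64 changed sign, all of the last from estimates that had not passed. Where a result changed, the cause was not tested.

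With the replicate number as a block (replicate block), 184 genes were called for CPC, 1072 for AEBDAC, 1904 for MTOAC and 2110 for the 3 compounds together, against 8, 153, 785 and 920 without it. Quantile normalization with the block gave 115, 907, 1194 and 1463. The members called rose from 0 to 1 for CPC with the block, also with quantile normalization, and from 1 to 3 for MTOAC and for the 3 compounds, where Gclc (adjusted p = 0.0277 and 0.0232 in limma) and Srxn1 (0.0238 and 0.0236) joined Hmox1, beside 15.9% and 17.6% of all genes. For AEBDAC and MTOAC against vehicle the libraries share only a number by the rule used: the correlations of their deviations were 0.0777, 0.253 and 0.0349, and -0.0263, 0.352 and -0.193.

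Quantile normalization alone called 16 genes for CPC, 430 for MTOAC and 598 for the 3 compounds, with 213 higher and 217 lower for MTOAC against 95 and 690 in the values reported, and 96 higher and 86 lower for AEBDAC against 47 and 106. With no filter 38 genes were called for AEBDAC, 404 for MTOAC, 552 for the 3 compounds, 1 for AEBDAC against CPC and 1 for MTOAC against CPC, and 0 members for AEBDAC. With only the compared groups in the fit the counts were 0 for CPC, 3 for AEBDAC, 17 for MTOAC, 1 for AEBDAC against CPC and 1 for MTOAC against AEBDAC, with 0 members for AEBDAC and for MTOAC, and the calls on Dpp3 with MTOAC (adjusted p = 0.0868 in limma), Slc3a2 with AEBDAC and MTOAC (0.11 and 0.0621) and Chac1 with CPC (0.181) were lost, as were those on Keap1 (0.136), Glrx (0.141), Sesn2 (0.117) and Cat (0.141) with MTOAC. With no filter the MTOAC calls on Keap1 (0.0772), Glrx (0.069) and Sesn2 (0.0697) and the call on Pgd over the 3 compounds (0.0753) were lost too. Leaving out 1 library at a time gave 1 to 5 genes for CPC, 9 to 104 for AEBDAC, 149 to 573 for MTOAC, 169 to 1068 for the 3 compounds and 0 to 1 for MTOAC against CPC, and 0 to 1 members for AEBDAC and MTOAC and 0 to 3 for the 3 compounds.

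With quantile normalization, with or without the block, the sign turned for Gsr (AEBDAC 0.038, MTOAC 0.058, the 3 compounds 0.026) and Nqo1 (MTOAC 0.077, the 3 compounds 0.059) against vehicle, for Nfe2l2 (0.0019) and Prdx1 (0.021) in MTOAC against CPC, and for Gclm (0.012) and Gsr (0.021) in MTOAC against AEBDAC. Without 1 library the sign turned in these ranges of log2 fold change. Against vehicle, CPC gave Nfe2l2 -0.43 to 0.0074, Nqo1 -0.58 to 0.12 and Prdx1 -0.14 to 0.15. AEBDAC gave Gclm -0.37 to 0.017, Nqo1 -0.40 to 0.47 and Prdx1 -0.28 to 0.025. MTOAC gave Nqo1 -0.46 to 0.25 and Prdx1 -0.17 to 0.13, and the 3 compounds gave Nqo1 -0.43 to 0.28 and Prdx1 -0.19 to 0.10. AEBDAC against CPC gave Nfe2l2 -0.13 to 0.12, Gclc -0.16 to 0.042, Srxn1 -0.16 to 0.28, Nqo1 -0.063 to 0.71 and Prdx1 -0.25 to 0.041. MTOAC against CPC gave Nfe2l2 -0.17 to 0.13, Txnrd1 -0.11 to 0.079, Prdx1 -0.15 to 0.14, Gsr -0.026 to 0.13 and Nqo1 -0.073 to 0.35. MTOAC against AEBDAC gave Nqo1 -0.59 to 0.19, Nfe2l2 -0.14 to 0.15, Prdx1 -0.064 to 0.27, Hmox1 -0.19 to 0.021, Gclm -0.22 to 0.14 and Gsr -0.12 to 0.047.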

Other observations

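A few genes of the NRF2 pathway were listed at high values in only 2 of the 12 libraries, vehicle library 1 and MTOAC library 3. Sqstm1, the autophagy receptor that binds KEAP1, was listed at 85.1 TPM in vehicle library 1 and at 50.5 TPM in MTOAC library 3, and between 0.417 and 2.74 TPM in the other 10. Ftl1, the ferritin light chain, was listed at 680 and 229 TPM in these libraries and between 20.0 and 41.2 TPM elsewhere. Ephx1, a microsomal epoxide hydrolase, was listed at 25.9 and 33.8 TPM, against at most 6.34 TPM elsewhere. Pou5f1, a pluripotency factor and no gene of this pathway, was listed at 7.83 and 9.64 TPM in the same libraries and at 0 in the other 10. These genes were chosen after their values were seen.

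Over the 12009 tested genes, vehicle library 1 and MTOAC library 3 were the libraries with the 2 highest values for 1724 genes (14.4%), the most frequent of the 66 pairs of libraries, followed by vehicle libraries 1 and 3 (10.9%). Of the 109 tested genes of the members and the 6 lists, 26 (23.9%) had their 2 highest values in that pair, Txnrd1 and Prdx1 among them. The lead over the other libraries was large for few of them. The second highest value was 18.5, 5.56 and 4.08 times the third for Sqstm1, Ftl1 and Ephx1. For all others of the 26 it was at most 1.57 times the third, with 1.03 for Txnrd1 and 1.02 for Prdx1. The 2 libraries belong to different groups and numbers. What they share was not tested.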
